A study of Mus musculus with 4 samples.

Results

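The scratch response of wild-type MLE-12 cells was read from 1 pair of mRNA libraries, the cells 24 h after a scratch wound against unscratched cells. MLE-12 is an immortalised mouse line of alveolar epithelial origin. Genes entered the comparison when they reached 1 CPM, the count scaled to the library's total, in either wild-type library, which 12184 of the 46078 genes in the count table did. Of these, 24 gave ribosomal or small structural RNA and 11 were replication-dependent histone genes, whose mRNA has no poly(A) tail. The other 12149, of which 11458 were protein-coding, are described as polyadenylated genes. Both wild-type groups carried no labelled gene edit, and neither had another treatment named in the labels. A second pair of the same line, labelled Lingo1 KO and likewise taken unscratched and 24 h post scratch, shares no library with the wild-type pair and is given beside it. Whether that line is a single clone is not given in the sources used here. Each of the 4 conditions had 1 library, so the differences below could not be set against the spread of replicates, and p-values are not given. The letter in the column names for the unscratched cells was read as such by elimination, on which the direction of all ratios depends.

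A scratch through an epithelial sheet kills the cells in its path and makes those at the edge spread, migrate and later divide until the gap is closed. The first hours are marked by immediate early genes such as those of the AP-1 family, and later stages by growth factor signals, protein synthesis and growth. ATF4 is a transcription factor whose own mRNA is translated more when amino acids run short or secretory stress arises. It binds composite C/EBP-ATF elements, and its known targets make serine, glycine, asparagine and proline, carry amino acids across the membrane and charge transfer RNAs.

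The wild-type libraries held 26903429 counts unscratched and 27907279 scratched, the knockout-labelled ones 29533746 and 48333801. Lingo1, the gene the label names, was at 46.4 CPM unscratched and 42.9 CPM scratched in wild type (ratio 0.924, 95% counting interval 0.853 to 1.00) and at 41.2 and 41.4 CPM in the libraries labelled knockout. The transcript level therefore does not check that label, and which part of the gene the edit touches is not given in the sources used here. Scaling factors (TMM) lay between 0.991 and 1.01. A value near the entry threshold rests on few reads. Cmpk2, just inside, had 17 and 28 counts in the unscratched and scratched library, and Sulf1, just outside, 19 and 27. Of the 12149 genes, 11805 passed in both libraries, 233 in the unscratched one alone and 111 in the scratched one alone. Fixed markers bore out the epithelial label in part. Of 5 general epithelial markers 4 reached 1 CPM, among them E-cadherin (Cdh1) at 787 CPM unscratched and 859 CPM scratched, while Krt18 did not. Of 10 alveolar type 2 markers 6 reached it, and the surfactant genes Sftpa1 and Sftpd had no reads in either wild-type library. Of the leukocyte, endothelial and fibroblast markers, 1 of 7, 1 of 6 and 3 of 8 reached 1 CPM. Ptprc, Cdh5, Col1a2 and Tcf21 had no reads in wild type, whereas decorin (Dcn) was at 2846 CPM unscratched and 2819 CPM scratched and the endothelial receptor gene Tek at 219 CPM unscratched and 207 CPM scratched. Of 10 alveolar type 1 markers 8 reached 1 CPM, with Ager at 461 CPM unscratched and 457 CPM scratched, and of 6 airway markers 3 did.

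Promoter sequences are shown first for the amino acid response genes on which the results below turn, because they carry the C/EBP-ATF element in its printed form. The windows run from 250 bases before to 20 after the RefSeq transcript start (GRCm38.p6, the mm10 assembly), 5′ to 3′ on the gene's strand. Capitals mark each match to TGATGNAA on either strand. Nupr1, a stress-induced chromatin protein, has its match at position -110 from the start (chr7:126625451-126625720, minus strand). Slc1a4 encodes a carrier of serine and alanine, with the match at -4 (chr11:20332694-20332963, minus strand). Asns, asparagine synthetase, has the match at -23 (chr6:7693190-7693459, minus strand). Chac1 degrades glutathione, with the match at -193 (chr2:119350992-119351261, plus strand). Slc7a11, the cystine carrier, has 2 matches, the first at -66 (chr3:50443594-50443863, minus strand). The last 2 were chosen after their values were seen.
Nupr1: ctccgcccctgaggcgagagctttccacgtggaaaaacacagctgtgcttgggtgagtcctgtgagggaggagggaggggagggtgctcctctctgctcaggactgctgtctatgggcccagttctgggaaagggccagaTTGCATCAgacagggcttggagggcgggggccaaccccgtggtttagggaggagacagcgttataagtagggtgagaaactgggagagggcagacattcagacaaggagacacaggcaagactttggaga
Slc1a4: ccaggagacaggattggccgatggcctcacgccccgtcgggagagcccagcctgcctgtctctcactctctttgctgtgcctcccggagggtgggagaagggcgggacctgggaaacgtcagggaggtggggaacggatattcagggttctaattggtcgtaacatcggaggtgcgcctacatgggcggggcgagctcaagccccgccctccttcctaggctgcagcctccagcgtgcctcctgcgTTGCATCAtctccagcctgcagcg
Asns: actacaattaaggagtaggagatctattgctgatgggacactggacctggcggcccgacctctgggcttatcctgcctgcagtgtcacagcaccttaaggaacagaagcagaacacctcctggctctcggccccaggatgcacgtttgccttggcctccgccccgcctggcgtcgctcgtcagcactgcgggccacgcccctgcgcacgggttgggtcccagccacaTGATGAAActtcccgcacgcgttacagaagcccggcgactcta
Chac1: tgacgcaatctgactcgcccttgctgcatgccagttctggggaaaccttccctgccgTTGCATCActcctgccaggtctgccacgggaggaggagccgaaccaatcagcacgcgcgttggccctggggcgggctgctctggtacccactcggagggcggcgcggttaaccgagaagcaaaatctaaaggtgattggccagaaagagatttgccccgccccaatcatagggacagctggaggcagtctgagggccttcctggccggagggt
Slc7a11: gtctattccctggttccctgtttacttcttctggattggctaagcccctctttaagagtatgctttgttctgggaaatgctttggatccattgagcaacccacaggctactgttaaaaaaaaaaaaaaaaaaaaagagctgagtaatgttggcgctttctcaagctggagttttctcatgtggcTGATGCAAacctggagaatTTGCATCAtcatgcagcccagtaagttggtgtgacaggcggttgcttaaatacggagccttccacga

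In full RefSeq windows of 300 bases (250 before and 50 after a start), TGATGNAA was found in 18 of 63 windows of ATF4 response genes at 1 CPM or more, or 28.6%. It was in 259 of the 12125 windows of all polyadenylated genes in the comparison (2.14%) and in 1304 of all 32851 windows (3.97%). Of the 18 windows of members that were at least 25% higher after the scratch, 8 held it (44.4%). A match is a string of letters and not a binding site, and the list was itself assembled from known ATF4 targets. The E-box CACGTG, its own reverse complement and the motif bound by Myc and its partners, was in 8 of 54 windows of ribosome biogenesis genes (14.8%), 9.97% of the windows of polyadenylated genes and 7.15% of all windows.

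At 24 h after the scratch, most wild-type transcripts stood close to their unscratched level, and the larger differences were few and mostly at low counts. The median log2 ratio of scratched over unscratched CPM was 0.02 over the 12149 genes, and the middle 50% lay between -0.09 and 0.11. Ratios above 1 made up 54.7% of the genes and ratios below 1 45.3%. A gene is called here when its ratio passes a stated fold and its exact 95% interval, which covers counting error only, excludes 1. At 1.5-fold, 64 genes were higher (0.527%) and 206 lower (1.70%), and at 2-fold 17 were higher (0.140%) and 71 lower (0.584%). By a smaller step, 284 genes were at least 25% higher (2.34%) and 486 at least 20% lower (4.00%), which is the same step on the log scale. Intervals alone excluded 1 for 2752 genes on the higher side (22.7%) and 1809 on the lower side (14.9%), so many small differences exceeded counting error. Of the 64 genes higher by 1.5-fold, 11 reached 5 CPM, and of the 206 lower ones 49 did. Of the 17 genes higher by 2-fold, 13 had entered through the scratched library alone, and of the 71 lower ones 52 through the unscratched library alone. A gene that enters through 1 library had to be higher there, so the entry rule helped select these.

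**Figure D1:**
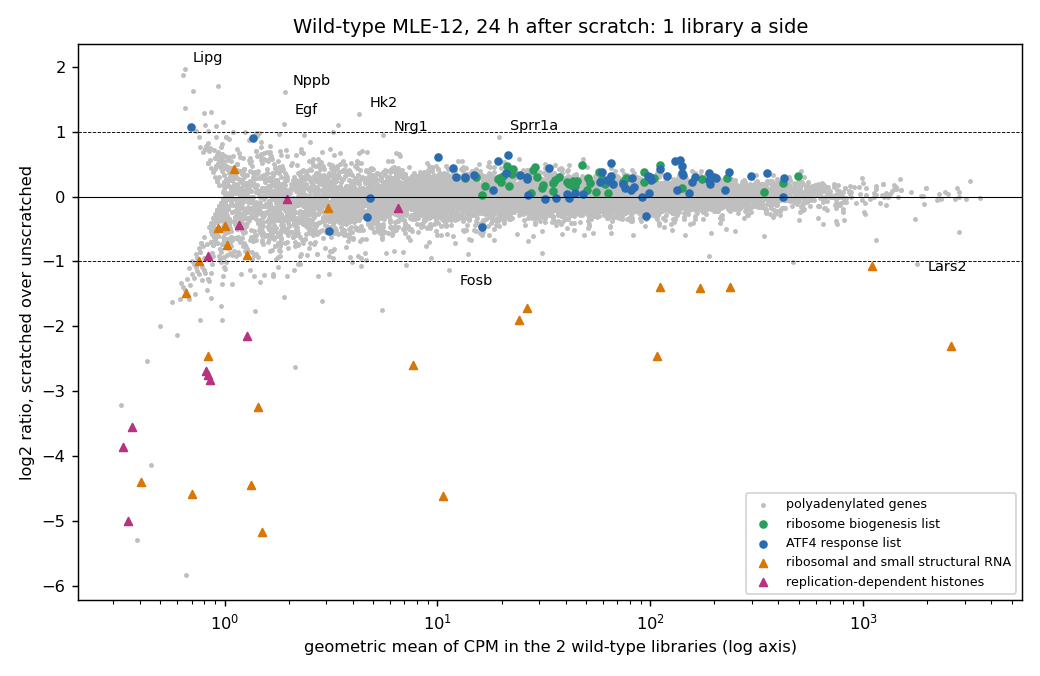
Log2 ratio of scratched over unscratched wild-type CPM (vertical axis) against the geometric mean of both CPM values (horizontal log axis), 1 point per gene, with dashed lines at 2-fold. Polyadenylated genes (grey) lie close to 0 at high levels and spread at low ones. ATF4 response genes (blue) and ribosome biogenesis genes (green) lie mostly above 0, and structural RNA and histone genes (triangles) lie mostly below.

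Among the 49 gene lists examined, which were chosen with earlier results of these data known, the amino acid response list had the highest median. Of its 69 genes, 66 reached 1 CPM, and their median log2 ratio was 0.29 against 0.02 for all genes. Above 0 were 56 and below 0 were 10. The interval excluded 1 on the higher side for 49 and on the lower side for 3, beside 22.7% and 14.9% of all genes. At least 25% higher were 21, beside 2.34% of all genes, and 2 were at least 20% lower, beside 4.00%. Among the higher ones, Cth reached 1 CPM in the scratched library alone, so the entry rule helped select it. In the knockout-labelled pair the same 66 genes had a median of 0.19, against 0.01 for all genes. There 14 were called at least 25% higher, beside 1.29% of all genes, of which 10 were among the 21. In these bulk libraries fewer cells of a kind and less RNA per cell cannot be told apart.

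Among the regulators of this response, 18 of 20 were in the comparison, with a median of 0.24, 14 above 0 and 4 below. Atf4 itself (ENSMUSG00000042406, chromosome 15, 80255184 to 80257541, plus strand, mm10) was at 207 CPM unscratched and 268 CPM scratched, a ratio of 1.29 (95% interval 1.249 to 1.34). In the knockout-labelled pair it was at 193 and 212 CPM, 1.10 times (1.06 to 1.14). The difference between the pairs on the log2 scale, 0.23 (95% counting interval 0.17 to 0.30), was beyond counting error. Nupr1 was at 17.1 CPM unscratched and 26.6 CPM scratched (1.56-fold, 1.38 to 1.75), and at 13.99 and 15.97 CPM in the other pair. Trib3, a pseudokinase that restrains ATF4, was at 16.01 CPM unscratched and 23.4 CPM scratched, a ratio of 1.46 (1.29 to 1.65) beside 1.48 with the knockout label. For Trib3 both scratched libraries exceeded both unscratched ones. The share of all genes with such an order was not counted, for Trib3 or for the genes below where it is given. Chac1 was at 10.2 CPM unscratched and 13.7 CPM scratched (1.35, 1.15 to 1.58) and Sesn2, a leucine-sensing inhibitor of mTORC1, at 18.6 CPM unscratched and 23.8 CPM scratched (1.28, 1.14 to 1.44), with knockout-labelled ratios of 1.45 and 1.28. Stc2, a secreted glycoprotein, was at 0.996 CPM unscratched and 1.86 CPM scratched, from 27 and 52 counts. The regulator called at least 20% lower was Cebpb, a C/EBP partner of ATF4, at 19.1 CPM unscratched and 13.8 CPM scratched (0.720, 0.630 to 0.823). It was at 0.981 times in the other pair.

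Enzymes of serine, one-carbon, asparagine and proline synthesis had the highest median of the 4 subsets of the list. Of 18 genes 17 were in the comparison, the median was 0.33 (0.29 in the knockout-labelled pair), and 15 were above 0. Of the 17, 9 were at least 25% higher, beside 2.34% of all genes, and 5 of them were so in both pairs. Asns (chromosome 6, 7675169 to 7693254, minus strand), whose promoter is printed above, was at 114 CPM unscratched and 168 CPM scratched and at 99.86 and 149 CPM in the knockout-labelled cells. The ratios were 1.47 (1.40 to 1.54) and 1.49 (1.43 to 1.56), so the 2 scratched libraries lay above the 2 unscratched ones. Phgdh, which starts serine synthesis from a glycolytic intermediate, was at 54.7 CPM unscratched and 78.6 CPM scratched (1.44, 1.34 to 1.54). Psph, which completes it, was at 28.7 CPM unscratched and 38.9 CPM scratched (1.36, 1.24 to 1.49). Mthfd2, the mitochondrial folate enzyme of rapidly growing cells, was at 108 CPM unscratched and 157 CPM scratched, 1.46 times (1.40 to 1.53) beside 1.40. Cth, which makes cysteine, had 13 and 28 counts, the gene just above the entry threshold, and its ratio of 2.09 had a wide interval (1.05 to 4.40). Cth is 1 of the 9, but it reached 1 CPM in the scratched library alone, so the entry rule helped select it.

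Amino acid transporters were mixed. All 13 were in the comparison, 9 above 0 and 4 below, with a median of 0.09 in wild type and 0.26 in the knockout-labelled pair. Among the 11 with at least 5 CPM the wild-type median was 0.28. Slc1a4 was at 8.12 CPM unscratched and 12.4 CPM scratched (1.52, 1.28 to 1.81) and at 11.6 and 14.8 CPM with the knockout label. Slc7a5, the light chain of the leucine exchanger LAT1, was at 120.2 CPM unscratched and 166 CPM scratched (1.38, 1.32 to 1.44), beside a knockout-labelled ratio of 1.51 (1.45 to 1.57). Slc7a11 was at 13.2 CPM unscratched and 16.6 CPM scratched (1.253, 1.09 to 1.44). Slc38a2, a sodium-coupled glutamine carrier, was at 423 CPM unscratched and 421 CPM scratched in wild type, with an interval that includes 1 (0.970 to 1.02), and at 337 and 404 CPM in the other pair. Slc7a3, a cationic amino acid carrier, was lower, at 3.73 CPM unscratched and 2.58 CPM scratched (0.693, 0.505 to 0.946).

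Aminoacyl-tRNA synthetases, which load amino acids onto transfer RNAs, were the most even subset. All 18 were above 0, 17 with intervals above 1 (22.7% of all genes), and the median was 0.29 (0.16 in the knockout-labelled pair). At least 25% higher were 3 in wild type and 0 in the other pair, beside 2.34% and 1.29% of all genes. The largest ratio of the 18 was that of Iars, the isoleucine enzyme, at 95.3 CPM unscratched and 128 CPM scratched (1.35, 1.28 to 1.42). Aars, the alanine enzyme, was at 385 CPM unscratched and 469 CPM scratched (1.22, 1.19 to 1.251) and at the same ratio of 1.22 with the knockout label.

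**Figure D2:**
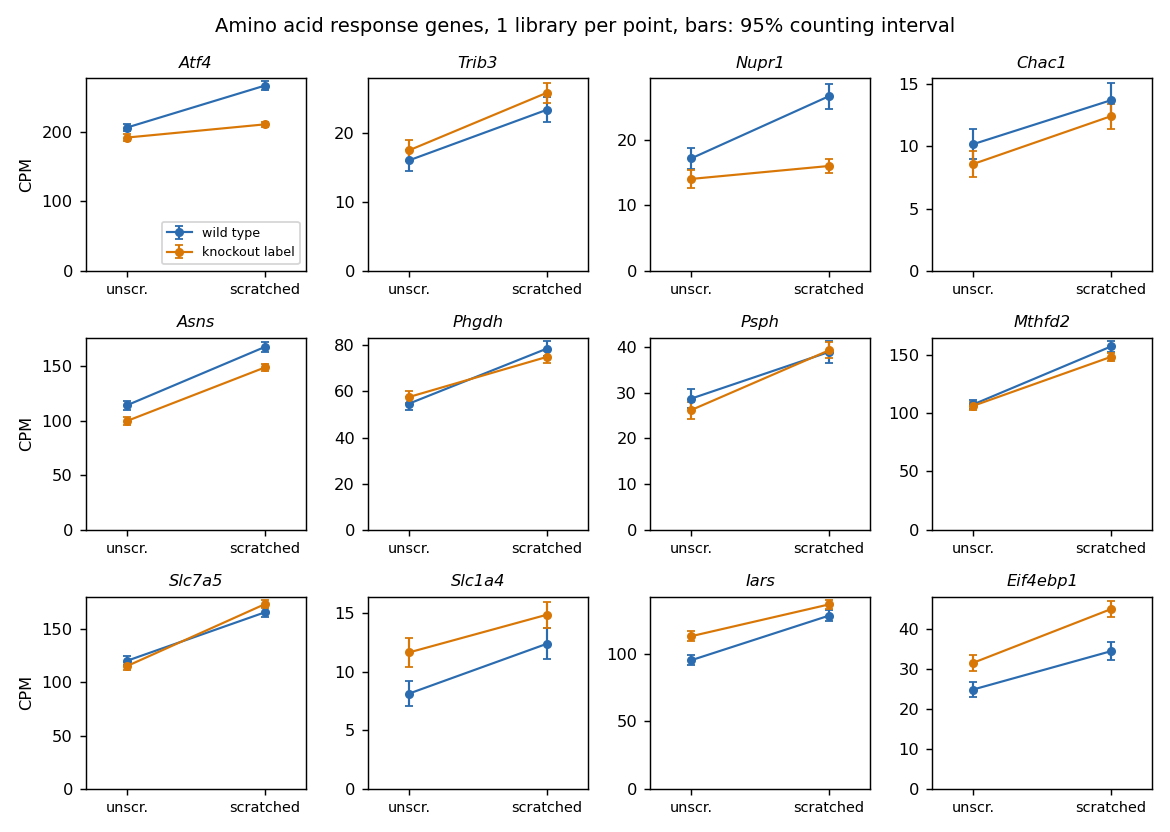
CPM (vertical axes from 0) of 12 genes of the amino acid response and translation control in unscratched and scratched cells, wild type in blue and knockout label in orange, 1 library per point with 95% counting intervals of each level (normal approximation). All 12 genes are higher in the scratched than in the unscratched library of both pairs, and of the 12 Nupr1 differs most between the pairs on the log2 scale.

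Of the genes that build ribosomes, 10 were called higher after the scratch and 0 lower. All 50 nucleolar factors on the list were above 0, 41 with intervals above 1, beside 22.7% of all genes, and 0 with intervals below. The median was 0.25, beside 0.17 with the knockout label. The 10 called ones were at least 25% higher, beside 2.34% of all genes, and 2 of them were so in both pairs (1.29% of all genes in the knockout-labelled pair). Mrto4, a factor of large subunit assembly, was at 40.5 CPM unscratched and 56.8 CPM scratched (1.40, 1.298 to 1.52) and Ddx21, a nucleolar RNA helicase, at 93.5 CPM unscratched and 131 CPM scratched (1.40, 1.33 to 1.47). Rrp12, needed for export of subunits, was at 18.1 CPM unscratched and 25.02 CPM scratched (1.38, 1.23 to 1.553), against 1.40 (1.28 to 1.54) with the knockout label. Nucleolin (Ncl), an organiser of the nucleolus, was at 441 CPM unscratched and 551 CPM scratched (1.251, 1.22 to 1.28).

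Myc, the transcription factor that drives growth genes, was at 26.97 CPM unscratched and 38.1 CPM scratched (1.41, 1.29 to 1.56) and at 48.3 and 57.5 CPM in the other pair (1.19). The list of Myc partners and polyamine enzymes had a median of only 0.07 over 16 genes, 10 above and 6 below 0. The 4 members called at least 25% higher, beside 2.34% of all genes, were Myc and 3 enzymes of polyamine synthesis. These enzymes are named here for that and were no list of their own. Of the 4, only Srm was also called so in the knockout-labelled pair, beside 1.29% of all genes there. Srm, spermidine synthase, was at 39.6 CPM unscratched and 59.1 CPM scratched (1.49, 1.38 to 1.61), Odc1, which makes putrescine, at 59.5 CPM unscratched and 78.4 CPM scratched (1.32, 1.23 to 1.40), and Amd1, which supplies the aminopropyl groups, at 22.8 CPM unscratched and 30.3 CPM scratched (1.33, 1.197 to 1.48). In the knockout-labelled pair Srm stood at 1.39 times and Odc1 at 1.01 times, and the Odc1 ratios differed beyond counting error (0.39 on the log2 scale, 0.27 to 0.51).

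Translation factors had a median of 0.17 (0.08 in the other pair), with 23 of 24 above 0. Eif4ebp1, the 4E-BP1 repressor of cap-dependent initiation and a known ATF4 target, was at 24.8 CPM unscratched and 34.4 CPM scratched (1.39, 1.26 to 1.53), and its cap-binding partner Eif4e at 39.6 CPM unscratched and 50.3 CPM scratched (1.27, 1.17 to 1.38). The cytosolic ribosomal proteins had 63 of 77 genes above 0 and a median of 0.12, against -0.01 in the knockout-labelled pair. Single members of this list are uncertain, since processed pseudogenes resemble them closely. Mitochondrial ribosomal proteins had 65 of 77 above 0 and a median of 0.13 (0.04).

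Several metabolic and stress lists sat slightly above the middle of all genes. Cholesterol synthesis had a median of 0.18 with 19 of 24 above 0 and 17 intervals above 1, beside 22.7% of all genes. Pmvk, phosphomevalonate kinase, was the 1 member of that list at least 25% higher, beside 2.34% of all genes. It was at 35.6 CPM unscratched and 46.7 CPM scratched (1.31, 1.204 to 1.42). In the knockout-labelled pair the cholesterol median was -0.00. Glycolysis had a median of 0.16 (0.08) with 18 of 21 above 0. Hk2, the hexokinase that commits glucose to glycolysis (chromosome 6, 82725025 to 82774454, minus strand), was at 2.77 CPM unscratched and 6.67 CPM scratched, 2.41 times (1.83 to 3.19). It was the 1 protein-coding gene with a gene symbol that was higher by 2-fold at 5 CPM or more. With the knockout label Hk2 was at 10.04 and 14.03 CPM (1.40, 1.22 to 1.61), so the unscratched wild-type library was the lowest of the 4. Ldha, lactate dehydrogenase A, was at 272 CPM unscratched and 330.3 CPM scratched (1.22, 1.18 to 1.253). The hypoxia list had a median of 0.05 over 17 genes, with 0 past the 25% step, beside 2.34% of all genes.

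NRF2 targets, which defend against oxidants, had 28 of 29 genes above 0 and a median of 0.16 (0.11 in the other pair). Nqo1, a quinone reductase, was at 73.7 CPM unscratched and 94.7 CPM scratched (1.28, 1.21 to 1.36). Heat shock genes had a median of 0.16 (0.10), with the mitochondrial chaperones Hspd1 at 138 CPM unscratched and 180.3 CPM scratched (1.31, 1.26 to 1.37) and Hspa9 at 279 CPM unscratched and 351 CPM scratched (1.26, 1.22 to 1.29). The inducible Hspa1b, nearly identical to Hspa1a and so uncertain, was lower at 8.97 CPM unscratched and 6.34 CPM scratched (0.708, 0.580 to 0.862). The unfolded protein response list had a median of 0.13 (0.01). Of its 25 members 0 were called 25% higher or 20% lower, beside 2.34% and 4.00% of all genes. Nuclear genes of the respiratory chain, with assembly factors of complex I counted in, had 67 of 83 above 0 and a median of 0.11 (0.02).

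Proliferation genes had medians inside the middle 50% of all genes and no member past the 25% step. In the list of G2 and mitosis genes, 49 of 54 were above 0, 35 with intervals above 1 (22.7% of all genes), and the median was 0.10. Of the 54, 0 were called 25% higher or 20% lower, and of the 50 S phase genes likewise 0. Of all genes 2.34% and 4.00% were, so few calls would fall in lists of this size at those shares. In the knockout-labelled pair the G2 and mitosis genes had a median of -0.02. Mki67, a marker of cycling cells, was at 746 CPM unscratched and 790.1 CPM scratched (1.06, 1.04 to 1.08) and at 955 and 808 CPM (0.846, 0.833 to 0.859) in the other pair. The difference of 0.33 (0.29 to 0.36) was beyond counting error. S phase genes had a median of 0.06 (0.01), with 40 of 50 above 0.

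**Figure D3:**
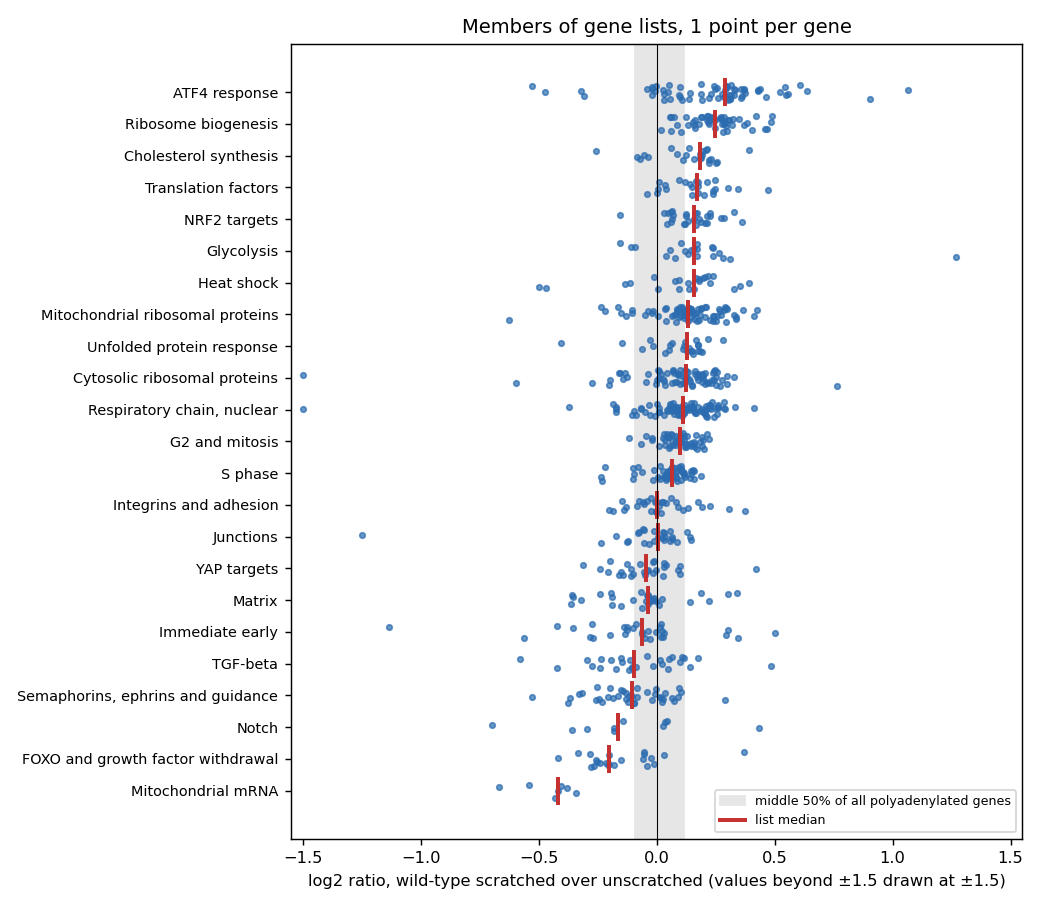
Log2 ratio of scratched over unscratched wild-type CPM for members of 23 gene lists, 1 point per gene at 1 CPM or more, with the list median as a red bar and the middle 50% of all polyadenylated genes, -0.09 to 0.11, in grey. ATF4 response and ribosome biogenesis have the highest medians, 0.29 and 0.25, and mitochondrial mRNA the lowest, -0.42.

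Single genes with the larger ratios included an epithelial differentiation marker and secreted signals. Sprr1a, a cornified envelope protein known from stressed epithelium (chromosome 3, 92483952 to 92485895, minus strand), was at 14.2 CPM unscratched and 26.7 CPM scratched (1.88, 1.66 to 2.13). It was at 15.5 and 23.01 CPM with the knockout label, so both scratched libraries lay above both unscratched ones. Sprr2a3, of the same family and with near-identical copies that make its count uncertain, was at 2.29 CPM unscratched and 4.55 CPM scratched (1.99, 1.46 to 2.74; knockout label 1.34). Fgfbp1, which releases FGF from the matrix, was at 11.1 CPM unscratched and 14.9 CPM scratched (1.34, 1.15 to 1.554; knockout label 1.59). The list grouped Fgfbp1, which is no envelope protein, with the cornified envelope genes. Of the 17 genes of that group, 4 were in the comparison. These 3 of the 4 were at least 25% higher, beside 2.34% of all genes. All 3 were so in both pairs, beside 1.29% of all genes in the knockout-labelled pair. The keratins on the list had a median of 0.06 over 5 genes, and Krt8 was at 247 CPM unscratched and 258 CPM scratched.

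Of the 16 EGFR family genes in the comparison, 2 ligands were at least 25% higher, beside 2.34% of all genes. Nrg1, a ligand of ErbB3 and ErbB4, was at 3.98 CPM unscratched and 7.67 CPM scratched (1.93, 1.52 to 2.45) and at 3.92 and 5.66 CPM in the other pair (1.44, 1.16 to 1.81). Egf was at 2.32 CPM unscratched and 4.98 CPM scratched (2.14, 1.58 to 2.93), and with the knockout label its ratio of 1.19 had an interval that includes 1 (0.939 to 1.53). The other 14 members in the comparison did not pass the 25% step, and the list median was -0.03. Egfr stood at 9.74 CPM unscratched and 9.50 CPM scratched and the wound ligand Hbegf, named after its value was seen, at 37.2 CPM unscratched and 31.6 CPM scratched (0.849, 0.775 to 0.931). Both Nrg1 and Egf have exons that overlap another annotated gene.

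A further 10 protein-coding genes with a symbol were higher by 2-fold at lower levels. Of these, 7 reached 1 CPM in the scratched library alone, so the entry rule helped select them. The peptide hormone gene Nppb was at 1.11 CPM unscratched and 3.37 CPM scratched (3.04, 1.999 to 4.76) and at 2.33 and 2.63 CPM in the other pair (1.13, 0.835 to 1.54). P2ry2, a receptor for extracellular ATP and UTP, had 9 and 34 counts (3.67, 1.72 to 8.70), and 1.63 (1.07 to 2.56) with the knockout label. Lipg, a lipase, had 9 and 36 counts (3.89, 1.84 to 9.17), and Lypd6, a membrane-anchored modulator of Wnt receptors, 14 and 47 (3.26, 1.77 to 6.42). The other 6 were Stmn4, Scnn1g, Sap18b, Bdh1 and the Egf and Cth named above, with ratios from 2.09 to 3.09. At 1.5-fold and 5 CPM, 9 such genes were higher. Beside Hk2, Nrg1, Sprr1a, Nupr1 and Slc1a4 these were Pecr (peroxisomal fatty acid metabolism), Arv1 (sterol transport), Mettl1 (a methyltransferase of transfer RNA) and Pinx1 (a nucleolar telomerase inhibitor), at ratios of 1.54 to 1.62. Of the 9, exons of Nrg1, Pecr and Mettl1 overlap another gene.

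Genes tied to repair and mechanical signals were mixed. Inhba, the activin A chain, was at 30.0 CPM unscratched and 42.0 CPM scratched (1.40, 1.28 to 1.53) but at 57.7 and 56.9 CPM with the knockout label (0.986, 0.928 to 1.05). Thbs1, thrombospondin 1, was at 66.6 CPM unscratched and 84.2 CPM scratched (1.27, 1.19 to 1.35; knockout label 0.958). Ankrd1 was the 1 YAP target past the 25% step, at 33.3 CPM unscratched and 44.6 CPM scratched (1.34, 1.23 to 1.46), in a list with a median of -0.05 and 20 of 28 members below 0. Plaur, the urokinase receptor, was at 12.2 CPM unscratched and 15.5 CPM scratched (1.27, 1.10 to 1.48) and the protease inhibitor Timp1 at 9.41 CPM unscratched and 11.9 CPM scratched (1.26, 1.07 to 1.49), with knockout-labelled ratios of 1.23 and 1.22. The list of proteases and inhibitors had a median of 0.02. Itga6, the laminin receptor chain, was the 1 integrin gene past the 25% step, at 7.64 CPM unscratched and 9.89 CPM scratched (1.295, 1.08 to 1.56). The 31 integrin and adhesion genes had a median of 0.00. Of all genes 2.34% were at least 25% higher. The single calls among 28 YAP targets and 31 integrin and adhesion genes are near that share.

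On the lower side, 4 AP-1 genes were at least 20% lower in wild type 24 h after the scratch, beside 4.00% of all genes. Of these, Fosb was also called lower in the knockout-labelled pair. Fosb, an early transcription factor (chromosome 7, 19302696 to 19310051, minus strand), was at 16.8 CPM unscratched and 7.64 CPM scratched (0.455, 0.385 to 0.536), and at 9.67 and 6.83 CPM in the other pair (0.706, 0.601 to 0.831). Jund was at 233 CPM unscratched and 158 CPM scratched (0.677, 0.651 to 0.703), Junb at 177 CPM unscratched and 132 CPM scratched (0.746, 0.714 to 0.778) and Jun at 200.3 CPM unscratched and 157 CPM scratched (0.783, 0.752 to 0.815). In the knockout-labelled pair their ratios were 0.971, 1.18 and 1.04. Fosl1 and Atf3, on the other side, were at 1.37 CPM unscratched and 1.68 CPM scratched (1.23, 0.785 to 1.95) and 11.1 CPM unscratched and 13.6 CPM scratched (1.23, 1.05 to 1.43). For Fosb, Jund, Junb and Jun the unscratched wild-type library was the highest of the 4 libraries. Of the 10 AP-1 genes in the comparison 7 were below 0, with a median of -0.17 (0.10 in the other pair), and the 20 other early factors had a median of -0.05. With the trend over GC content and length removed, Jund was at -0.35 and Junb at -0.31 on the log2 scale, from -0.56 and -0.42.

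FOXO targets and insulin pathway genes, which rise when growth factors are withdrawn, had 20 of 22 members below 0, beside 45.3% of all genes, and a median of -0.20. Their intervals lay below 1 for 12, beside 14.9% of all genes, and above 1 for 0. At least 20% lower were 2, Irs2 and Bcl6, beside 4.00% of all genes. The knockout-labelled median was -0.15. Irs2, the insulin receptor substrate, was at 145 CPM unscratched and 109 CPM scratched (0.748, 0.713 to 0.784) and at 0.947 times in the other pair. Bcl6, a transcriptional repressor, was at 35.8 CPM unscratched and 28.4 CPM scratched (0.792, 0.721 to 0.871). Cdkn1b, the p27 inhibitor of the cell cycle, was at 548 CPM unscratched and 463 CPM scratched (0.846, 0.826 to 0.866). With the knockout label the intervals of both include 1, at 0.990 (0.918 to 1.07) for Bcl6 and 0.991 (0.968 to 1.01) for Cdkn1b. Foxo3 itself, named after its value was seen, was at 148 CPM unscratched and 121 CPM scratched (0.821, 0.784 to 0.860), beside 0.808 (0.779 to 0.838) with the knockout label.

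TGF-beta, Notch and guidance lists had medians below 0. TGF-beta genes had a median of -0.09 (-0.03), with 13 intervals below 1 and 4 above, beside 14.9% and 22.7% of all genes. Tgfb1 was at 44.0 CPM unscratched and 32.8 CPM scratched (0.746, 0.684 to 0.814) and at 45.8 and 35.0 CPM in the other pair (0.764, 0.711 to 0.821), so both scratched libraries lay below both unscratched ones. Smad6, an inhibitor of BMP signalling, was at 47.2 CPM unscratched and 31.6 CPM scratched (0.669, 0.614 to 0.730) but at 1.13 times with the knockout label. Notch genes had a median of -0.16 (-0.03) over 10 members, with the ligand Jag2 at 29.0 CPM unscratched and 22.6 CPM scratched (0.779, 0.700 to 0.866) and the target Nrarp at 2.32 CPM unscratched and 1.43 CPM scratched (0.617, 0.404 to 0.931). Semaphorins, ephrins and their receptors had 28 of 39 below 0 and a median of -0.11 (-0.04). After removal of the GC and length trend the Notch and guidance medians were -0.05 and -0.02.

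Of the 16 genes of the Lingo1 and Nogo receptor group 9 were in the comparison, with a median of -0.05 in both pairs. Lrp1, a large endocytic receptor, was at 269.4 CPM unscratched and 191 CPM scratched (0.710, 0.685 to 0.736) and at 376 and 280.1 CPM (0.746, 0.727 to 0.765). Lingo4, a low-level relative of Lingo1, was at 1.14 CPM unscratched and 1.94 CPM scratched (1.69, 1.07 to 2.72; knockout label 1.02).

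The basement membrane genes Lama5 and Hspg2 were lower in both pairs. Lama5, a laminin chain, was at 562 CPM unscratched and 439.9 CPM scratched (0.782, 0.764 to 0.801; knockout label 0.808), and Hspg2, perlecan, at 921 CPM unscratched and 718 CPM scratched (0.780, 0.765 to 0.794; knockout label 0.843). With the GC and length trend removed, they were at -0.05 and -0.01 on the log2 scale and Lrp1 at -0.18, from -0.35, -0.36 and -0.49. The matrix list had a median of -0.04, and of 0.04 with that trend removed. Of its 29 genes in the comparison, intervals lay below 1 for 10 and above 1 for 4. In the knockout-labelled pair, where no trend was removed, the median was -0.09, with 20 intervals below 1 and 0 above. Nkx2-1, the lung lineage transcription factor, was at 163 CPM unscratched and 128 CPM scratched (0.784, 0.7501 to 0.820; knockout label 0.961), and surfactant protein C, named after its value was seen, at 5.68 CPM unscratched and 6.42 CPM scratched (interval 0.905 to 1.41).

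Among protein-coding genes with a gene symbol, the lower side held more members than the higher side at 1.5-fold and at 2-fold. At 5 CPM or more, 7 were lower by 2-fold: Gnas (0.162), Rpl23a (0.298), Scand1 (0.329), Fosb, Dmrta2 (0.475), Ier5l (0.484) and Lars2 (0.489). Exons of Gnas, Rpl23a and Scand1 overlap another annotated gene, so their counts are uncertain. Dmrta2, a DM-domain transcription factor gene, was at 6.35 CPM unscratched and 3.01 CPM scratched, and Ier5l, related to an early response gene, at 10.2 CPM unscratched and 4.95 CPM scratched, with knockout-labelled ratios of 0.779 and 0.763. At 1.5-fold and 5 CPM, 34 such genes were lower, 18 with overlapping exons, and their median transcript GC content was 56.7%, against 50.4% for the 9 higher ones and 49.7% for all genes. H1f10, a linker histone gene with a polyadenylated transcript and 71.3% GC, was at 41.8 CPM unscratched and 22.8 CPM scratched (0.545, 0.494 to 0.601). Zfp771, a zinc finger gene, was at 19.0 CPM unscratched and 10.3 CPM scratched (0.544, 0.470 to 0.630) and at 1.09 times in the other pair.

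Across all genes the wild-type ratio differed by GC content. In the decile of genes with the highest GC content (57.8% or more) the median log2 ratio was -0.11, and in decile 5, from 47.8 to 49.7%, it was 0.06. In the knockout-labelled pair the medians of the deciles lay between 0.00 and 0.02. With a smooth trend over GC content and transcript length removed, the ATF4 response median was 0.24 and the ribosome biogenesis median 0.21, while the cytosolic ribosomal protein median was 0.06 and the S phase median 0.02. The respiratory chain median was then 0.06, NRF2 targets 0.10, mitochondrial ribosomal proteins 0.09, the unfolded protein response 0.08 and amino acid transporters 0.18. The part of GC content in the single ratios was not tested further.

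**Figure D4:**
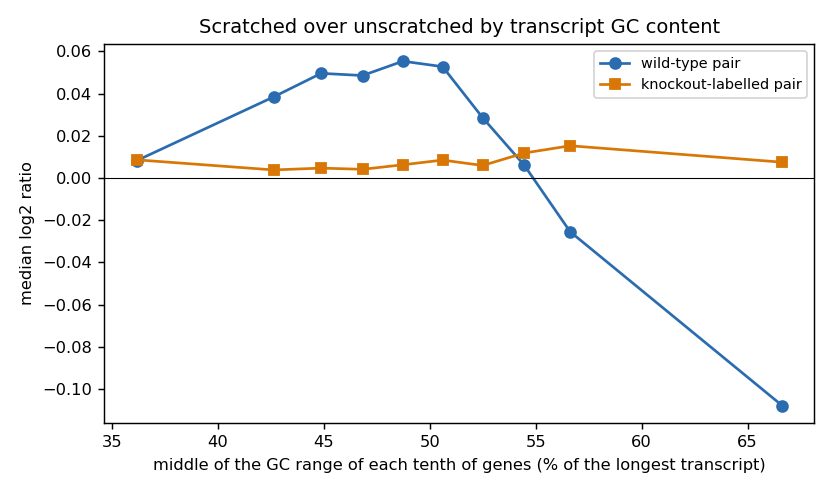
Median log2 ratio of scratched over unscratched CPM (vertical axis) in deciles of genes ordered by transcript GC content (horizontal axis, percent), wild-type pair in blue and knockout-labelled pair in orange. The wild-type medians are near 0.05 at middle GC content and reach -0.11 in the highest decile, and the knockout-labelled medians stay near 0.

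Many lists of wound biology had medians inside the middle 50% of all genes. Epithelial junction genes had a median of 0.01 over 27 members, with Cdh1 at 1.09 times (1.07 to 1.11). Actomyosin and cytoskeleton genes were at 0.05, annexins and other membrane repair genes at 0.08, and Wnt genes at -0.03. ERK feedback genes were at -0.04, with Spred3, an inhibitor of Ras signalling, lower at 14.7 CPM unscratched and 9.61 CPM scratched (0.654, 0.558 to 0.766). The p53 targets had a median of 0.02, with Gadd45a, a growth arrest gene, at 13.2 CPM unscratched and 18.7 CPM scratched (1.41, 1.23 to 1.62) and the death gene Bbc3 at 4.61 CPM unscratched and 3.05 CPM scratched (0.661, 0.496 to 0.877). Interferon-stimulated genes were at 0.05 with 27 of 35 above 0, among them Irf7, an interferon-induced regulator, at 4.17 CPM unscratched and 5.66 CPM scratched (1.36, 1.06 to 1.75). The median was -0.03 for MHC class I genes and -0.01 for NF-kB regulators with cytokines. Within the last list, Nfkbiz, an inducible regulator of NF-kB, was at 16.05 CPM unscratched and 11.1 CPM scratched (0.695, 0.599 to 0.805). Tnfaip3, the A20 brake on NF-kB, was at 9.08 CPM unscratched and 11.6 CPM scratched (1.28, 1.08 to 1.52). Fatty acid synthesis was at 0.04, lysosome and autophagy at 0.03 and clock genes at -0.07, with the clock output Dbp at 12.2 CPM unscratched and 8.10 CPM scratched (0.663, 0.558 to 0.788). Of the cell state lists, alveolar type 1 genes were at -0.01. Just outside the middle 50% were type 2 genes at -0.10 and the Krt8-positive transitional state of alveolar repair at 0.12 (0.02 in the other pair).

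Ribosomal and small structural RNA took a smaller share of the scratched than of the unscratched wild-type library. The share was 0.873% of counts unscratched and 0.236% scratched, and with the knockout label it was 0.345% and 0.973%, the opposite order. Of the 24 such genes 19 were lower by 1.5-fold in wild type and 0 higher, while 13 were at least 25% higher in the other pair. Histone transcripts without a poly(A) tail summed to 37.5 and 15.1 CPM in wild type and to 25.1 and 44.9 CPM with the knockout label. Lars2, the mitochondrial leucyl-tRNA synthetase gene (chromosome 9, 123366927 to 123462666, plus strand), was at 2558 CPM unscratched and 1250.1 CPM scratched and at 1420.0 and 2842 CPM, the same order as the ribosomal RNA. Of the genes encoded in mitochondria, 7 mRNAs were in the comparison, all lower in wild type, with a median of -0.42 (0.21 in the other pair). Cytochrome b (mt-Cytb) was at 1967 CPM unscratched and 1551 CPM scratched, and the subunit 1 gene of cytochrome oxidase (mt-Co1) at 3419.9 CPM unscratched and 2347 CPM scratched. The mitochondrial ribosomal RNAs summed to 660.5 CPM unscratched and 249.99 CPM scratched. Noncoding classes had medians below 0 in wild type, -0.15 for 112 antisense and -0.09 for 128 lincRNA genes. The part of structural RNA in the lower side of the wild-type comparison was not tested.

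**Figure D5:**
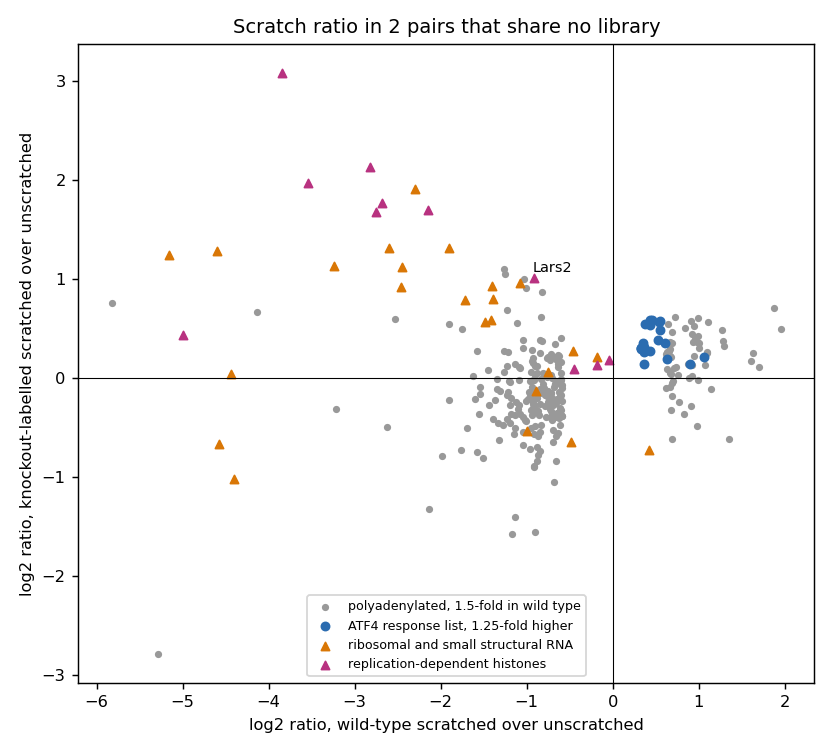
Log2 ratio of scratched over unscratched CPM in the knockout-labelled pair (vertical axis) against the wild-type pair (horizontal axis), 1 point per gene, for genes called 1.5-fold in wild type (grey), ATF4 response genes at least 25% higher there (blue) and structural and histone RNA (triangles). The blue points lie to the right and mostly above 0, and the triangles lie mostly to the left and mostly above 0.

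The called genes had the same sign in the knockout-labelled pair more often than not, with smaller ratios there. For all genes the median log2 ratio in that pair was 0.01, and the share with each sign was not counted. Of the 64 genes higher by 1.5-fold in wild type, 50 had the same sign there (78.1%), 10 were called at least 25% higher, beside 1.29% of all genes, and 2 lower. Of the 206 lower genes, 149 had the same sign (72.3%), 36 were called at least 20% lower, beside 2.06% of all genes, and 8 higher. The median log2 ratio of the 64 was 0.90 in wild type, where they were chosen, and 0.21 in the other pair, and that of the 206 was -0.88 and -0.20. In that pair, 46 genes were higher by 1.5-fold (0.379%) and 74 lower (0.609%).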

How the data were processed

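RNA of MLE-12 cells from 4 conditions, 1 library each, was sequenced as mRNA. The authors deposited a table of whole-number read counts per gene, with no normalization, and a table of RPKM values for 14844 genes. Per the submitters' processing notes, Trimmomatic 0.39, STAR 2.7.9a, HTSeq 0.11.3 and edgeR 3.32.1 were used on mm10. How strand was treated and which annotation release was counted is not given in the sources used here. Annotation was taken from GENCODE M21 (GRCm38), which held 45229 of the 46078 gene identifiers, and promoters from RefSeq.

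Counts were scaled to CPM with TMM factors over the 4 libraries (edgeR 4.0.16, R 4.3.3). The ratio of a pair has an exact 95% Clopper-Pearson interval from the split of its counts (Python 3.11.15, scipy 1.17.1), which covers counting error only, since reads without molecular identifiers are not independent molecules. A count of 0 allows up to 3 counts, or 0.111 CPM in the unscratched wild-type library. The calling was checked on simulated counts. With 1 library per condition there is no test between conditions. The genes named were those called 2-fold at 5 CPM or more, list members at least 25% higher or 20% lower, and others said to be chosen after their values were seen. Beside these, genes at 1.5-fold or at lower levels and single list members below that step were also named after their values were seen. The members and the 49 gene lists were chosen with earlier results of these data known. Alternatives were 10 planned ones, among them DESeq2 1.42.0 size factors and the deposited RPKM values on the log2 scale with a pseudocount of 0.1, and 2 added after seeing the data.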

Additional observations from a re-analysis of the deposited data

Results flagged for a closer look

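In 5 of the genes named by rule the wild-type and knockout-labelled pairs went in opposite directions after the scratch, each at least 20% lower or 25% higher with an interval that excludes 1, and the difference of the log2 ratios was beyond its counting interval. The differences between conditions were not tested, since each condition has 1 library. All 5 were lower in wild type and higher with the knockout label. Over all polyadenylated genes 11 were so and 2 the other way round. Of the structural RNA genes 13 of 24, and of the histone genes 7 of 11, were lower in wild type and higher with the knockout label. Lars2, the mitochondrial leucyl-tRNA synthetase gene, had ratios of 0.489 and 2.001, a difference of -2.03 on the log2 scale (-2.06 to -2.01), and mt-Nd1, a subunit gene of complex I, 0.630 and 1.27, a difference of -1.01 (-1.04 to -0.98). Ribosomal RNA was likewise lower in the wild-type and higher in the knockout-labelled scratched library, at 5987 and 1209 CPM in wild type and 1930 and 7062 CPM with the knockout label, and its part was not tested. Rpl23a, a ribosomal protein gene with processed copies, had ratios of 0.298 and 1.41 (difference -2.24). Ccdc85b, a coiled-coil protein gene, had 0.558 and 1.31 (difference -1.23). Cldn3, a tight junction claudin, had 0.421 and 2.07 (difference -2.30) from 30 and 13 wild-type counts. The exons of Rpl23a, Ccdc85b, Cldn3 and mt-Nd1 overlap another annotated gene.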

How the results depend on the processing

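No paired analysis was possible because the wild-type comparison has 1 library a side and the labels give no replicate numbers. A fit of the scratch over both lines with the line as a block, which would average wild type with the knockout label, was not run. For the same reason no library could be left out. The counts of called genes depended most on the level demanded. Of the 64 higher and 206 lower genes at 1.5-fold, a minimum of 5 CPM left 11 and 49, and a stricter exact interval (0.1% outside) 21 and 87. Protein-coding genes alone gave 121 lower, and leaving out genes with overlapping exons 107 lower. Of the 17 higher and 71 lower genes at 2-fold, a minimum of 5 CPM left 1 and 9 and the stricter interval 8 and 35. The deposited RPKM values, which have no interval and were called by fold alone, gave 8 and 45. With no filter on low counts, the read counts gave 45 and 172. Protein-coding genes alone gave 34 lower at 2-fold, and leaving out overlapping exons 43. Scaling by DESeq2 size factors, by total counts or by TMM over the wild-type pair kept these counts within 1.5 times, as did a prior count of 2, the GC and length trend removed and histone genes kept. The overlap and histone alternatives were chosen after seeing the data. Removal of the GC and length trend moved 24 of 122 named genes, and no other alternative moved one. Of the list medians 12 moved, 8 of them under that trend. No result changed direction past its threshold. Depth limits genes near 1 CPM, which rest on about 28 counts.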
